A study of Mus musculus with 16 samples.

Results

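The genes described here are the cytosolic translation initiation factors (eIFs) and elongation factors (eEFs) of mouse, with the kinases and binding proteins that carry their names. They were chosen by symbol alone, as every gene whose name starts with Eif or Eef and a digit, without the sex-linked pair Eif2s3x and Eif2s3y. That gave 58 of the 13277 genes listed, and RefSeq annotates all 58 as protein coding. A few of them are regulators rather than factors, among them the kinases Eif2ak1 to Eif2ak4 and Eef2k and the 3 eIF4E-binding proteins. RNA was measured in the striatum of 8 adult mice that carried the RiboTag allele, a ribosomal protein that gains a haemagglutinin tag after Cre recombination, together with Aldh1l1-Cre/ERT2, an inducible Cre driven by the astrocyte gene Aldh1l1. Per the labels the RiboTag line was on a B6 background and the Cre line, made in FVB, had been backcrossed to C57BL/6N. The control group of 4 mice (Y481, Y482, Y483, Y485) received an adeno-associated virus for a control protein. The PMCA group of 4 mice (Y486, Y487, Y489, Y490) received a virus for hPMCA2w/b, a human plasma membrane pump that extrudes calcium. Each mouse gave an input library from the cleared lysate and an IP library from RNA on the precipitated, tagged ribosomes, so the 16 libraries formed 4 groups of 4. The study asked what reduced astrocyte calcium signalling does in the striatum. Values per library are listed below in the mouse order just given.

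Initiation begins when eIF2 brings the initiator tRNA to the small ribosomal subunit, which also carries eIF1, eIF1A, eIF3 and eIF5, and when the eIF4 factors bind the cap of the mRNA and unwind it. Kinases that phosphorylate eIF2 lower initiation in stressed cells, and eIF4E-binding proteins block cap binding when the mTORC1 kinase is inactive. In elongation eEF1A delivers aminoacyl-tRNA to the ribosome, the eEF1B subunits reload it with GTP, and eEF2 moves the ribosome by a codon until its kinase eEF2K, which calcium and calmodulin activate, inhibits it. Many of these factors, like the ribosomal proteins, come from TOP mRNAs, whose 5' end is a run of pyrimidines that ties their translation to mTORC1. In the brain eEF1A has a paralog pair, with Eef1a1 made in most cells and Eef1a2 in mature neurons.

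Start-site sequences are shown for 3 genes that the results return to: Eef1a1 (eEF1A1), Eef2 (eEF2) and Eif2ak2 (the double-stranded RNA-activated kinase PKR, an interferon-induced gene). They are 30-base stretches from RefSeq promoter windows on GRCm38.p6, the assembly that mm10 names, written along the gene's strand, with a match to a searched motif in capitals. The motifs were TATAAA and its variant TATAAG, the core promoter TATA box, and GAAA followed after 2 bases of any kind by GAAA, a core of the interferon-stimulated response element.
Eef1a1: gggagaacggtaTATAAGtgcggcagtcgc
Eef2: ccggcgtcgaccTATAAAaggccgggcgtt
Eif2ak2: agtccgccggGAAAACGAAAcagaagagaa
The Eef1a1 stretch is chr9:78481682-78481711 on the minus strand, and its motif begins at base 26 of the transcript as RefSeq annotates it. The Eef2 stretch is chr10:81176604-81176633 on the plus strand, and its motif begins at -15 from the annotated start. For Eif2ak2 the stretch is chr17:78882535-78882564 on the minus strand, with the motif from base 19 of the transcript. Windows of 300 bases were searched on both strands; the TATA motifs share their opening letters but cannot match at the same bases. TATAAA lay in 13.6% of 32851 windows and in 4 of 61 windows of the members (6.56%). TATAAG lay in 7.43% of all windows and in 2 of 61 of the members (3.28%). The spaced GAAA pair lay in 3.44% of all windows and in 3 of the 61 (4.92%), those of Eif2ak2, Eif2s1 and Eif3a. A promoter sequence was found for 46 of the 58 members, and the matches are a description of letters.

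The libraries held 198462 to 686343 reads over the listed genes, and the shallowest was the input of control mouse Y481. Of the 58 members, 47 passed the filter on low counts over all 16 libraries, 49 over the IP libraries alone and 42 over the input libraries alone. In both treatments the 10 astrocyte markers examined were called higher in IP than in input, and the 9 projection neuron and 8 general neuron markers were called lower. Of 8 oligodendrocyte markers 7 were called lower in each treatment, and Cnp was not called (-0.12 and -0.46). Of 6 microglial markers tested, 6 were called lower in control mice and 3 in PMCA mice. Among all genes tested 27.3% were called higher and 26.1% lower in control mice, and 24.9% and 24.8% in PMCA mice. Microglial markers summed to 51.7 to 140 CPM (the read count scaled to the effective library size) in control IP and to 145 to 517 CPM in PMCA IP, which did not overlap. Of the 8 microglial markers 4 were tested in IP between treatments, and 2 were called higher in PMCA mice. Between 0 and 2 of the 8 were at 0 in an IP library. In input they summed to 322 to 664 CPM in control mice and 522 to 1091 CPM in PMCA mice. The summed astrocyte, projection neuron, general neuron and oligodendrocyte markers overlapped between treatments in IP. Of 7 general neuron markers tested there, 4 differences were positive and 3 negative, with a median of 0.07. Tubb3 alone of them was called, lower in PMCA mice (-1.19, limma adjusted p = 0.0343). The 5 endothelial markers summed to 58.8 to 116 CPM in control input and 207 to 235 CPM in control IP. The 2 tested went opposite ways. Slco1c1, a thyroid hormone transporter that astrocytes also express, was called higher in IP in both treatments (3.05 and 2.76). Flt1 was lower in IP, called in control mice (-2.94, limma adjusted p = 0.00488) and not called in PMCA mice (-1.98, limma adjusted p = 0.0559). In these bulk libraries fewer cells of a type and less RNA per cell cannot be told apart.

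In RNA on astrocyte ribosomes, PMCA mice had less Eef1a1 than control mice, and no other member was called. Eef1a1 encodes the eEF1A isoform of most cells and is at chromosome 9, 78478453 to 78481724, on GRCm38.p6. Its level in control IP was 10.54, 10.67, 10.36 and 10.29 log2 CPM. In PMCA IP it was 9.89, 10.04, 9.54 and 9.55 log2 CPM. All 4 PMCA libraries lay below all 4 control libraries. The difference was -0.71 on the log2 scale (SE 0.12, 95% interval -0.95 to -0.46), a 1.63-fold lower level, with a limma adjusted p of 0.00124 over 7094 genes. It rested on a mean of 676 reads per library in control mice and 406.5 in PMCA mice. It was called whichever mouse was left out, with adjusted p between 0.000466 and 0.0235. It was not called without the variance trend and robust moderation, where the limma adjusted p was 0.277 and no gene at all passed, nor with the spread shared over all 16 libraries (0.175). RefSeq names 13 pseudogenes after the members, and the sources used here do not give how multiply mapped reads were counted. The microglial marker sums and Tubb3, the 1 called of 7 general neuron markers, moved with the same contrast. Their part in the result was not tested.

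The input libraries did not show the same separation. Control input held Eef1a1 at 10.06, 10.53, 10.72 and 10.82 log2 CPM. PMCA input held it at 10.02, 10.41, 10.67 and 10.996 log2 CPM. The ranges overlapped almost fully, and the difference was -0.01 (SE 0.20, 95% interval -0.45 to 0.43, limma adjusted p = 1). The test of the difference between the IP and input effects gave -0.70 (SE 0.26, unadjusted p = 0.0148, limma adjusted p = 0.913), so the treatment effect was not shown to differ between the fractions. As a description, Eef1a1 made up 17.9% ± 0.98 of all members' reads in control IP and 12.2% ± 1.69 in PMCA IP (SD, n = 4). In input it made up 20.25% ± 3.75 in control mice and 20.04% ± 4.59 in PMCA mice. The members without Eef1a1 summed to 6092 to 6840 CPM in control IP and 5754 to 6465 CPM in PMCA IP, which overlapped.

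**Figure D1:**
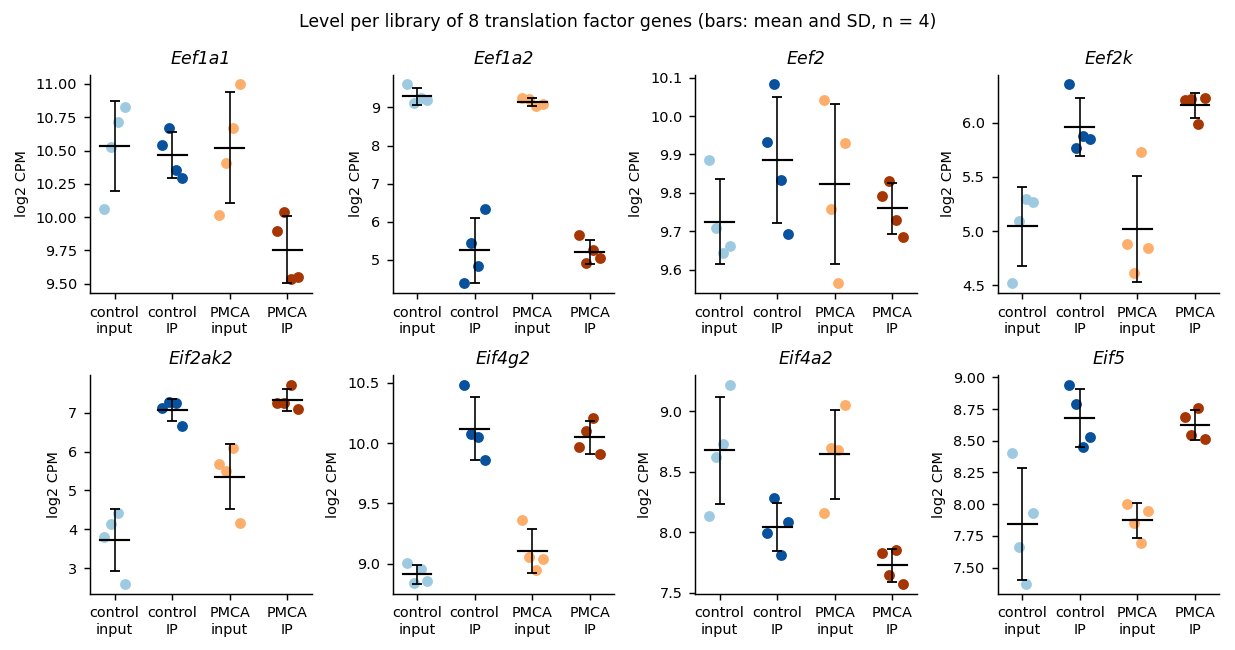
Level of 8 members in every library (log2 CPM, axes not starting at 0), by treatment and fraction, with points for mice and bars for the mean and SD (n = 4). Eef1a1 in PMCA IP lies at 9.54 to 10.04, below all control IP libraries, while Eef1a2 drops from input to IP in both treatments.

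Among 49 members tested in IP, 1 was called lower and 0 higher by limma, 2.04% against a background of 0.507% of all genes called in either direction (0.127% lower). The libraries of the groups did not overlap for 0 members higher and 1 lower, beside 3.13% and 3.74% of all genes. The members' median difference was -0.08 on the log2 scale, against -0.01 over all genes tested. Of the 49 differences 29 were negative (59.2%, beside 50.8% of all genes). At an unadjusted p under 0.05 there were 0 members higher and 4 lower, beside 476 and 442 of 7094 genes. Besides Eef1a1 these were Eif1ax (-0.59), Eif4a1 (-0.73) and Eif4a2 (-0.32), with limma adjusted p between 0.343 and 0.371. Eif1ax encodes an eIF1A, which helps the ribosome scan, and Eif4a1 and Eif4a2 encode the cap complex helicase. The 95% interval stayed within 2-fold either way for 37 of the 49 members.

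The other elongation factors did not pass the test in IP. Eef2, the translocase, was at 9.93, 10.08, 9.83 and 9.69 log2 CPM in control IP. It was at 9.79, 9.83, 9.73 and 9.68 log2 CPM in PMCA IP. These ranges overlapped, and the difference of -0.13 had a 95% interval of -0.35 to 0.10. Eef2k, its calcium-dependent kinase, was at 6.35, 5.76, 5.88 and 5.85 log2 CPM in control IP and 6.21, 6.22, 5.98 and 6.22 in PMCA IP. Again the groups overlapped, with a difference of 0.20 (95% interval -0.30 to 0.69). The neuronal paralog Eef1a2 differed by -0.03 (-0.77 to 0.70). Of the eEF1B exchange complex, Eef1b2 differed by 0.04, Eef1d by 0.07 and Eef1g by -1.06, the last with an interval of -2.62 to 0.50. The Eef1g value of Y490 came from 1 read. Without Y490 the Eef1g difference was -0.23.

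The initiation factors showed the same absence of calls. The 4 eIF2 kinases, which sense haem (Eif2ak1), double-stranded RNA (Eif2ak2), unfolded protein in the endoplasmic reticulum (Eif2ak3) and uncharged tRNA (Eif2ak4), differed by 0.13, 0.25, 0.24 and 0.03 in IP. None was called by limma or with voom weights, and 0 had an unadjusted p under 0.05. The eIF3 genes, 12 in number, ranged from -0.57 to 0.26 with a median of -0.19, and 0 were called by limma or with voom weights or had an unadjusted p under 0.05. Of 11 cap complex genes tested in IP, 0 were called by limma or with voom weights and 2, the helicase genes above, had an unadjusted p under 0.05, while the cap-binding protein gene Eif4e differed by -0.12 (-0.61 to 0.37). The scaffold genes Eif4g1, Eif4g2 and Eif4g3 differed by 0.09, -0.07 and 0.31.

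**Figure D2:**
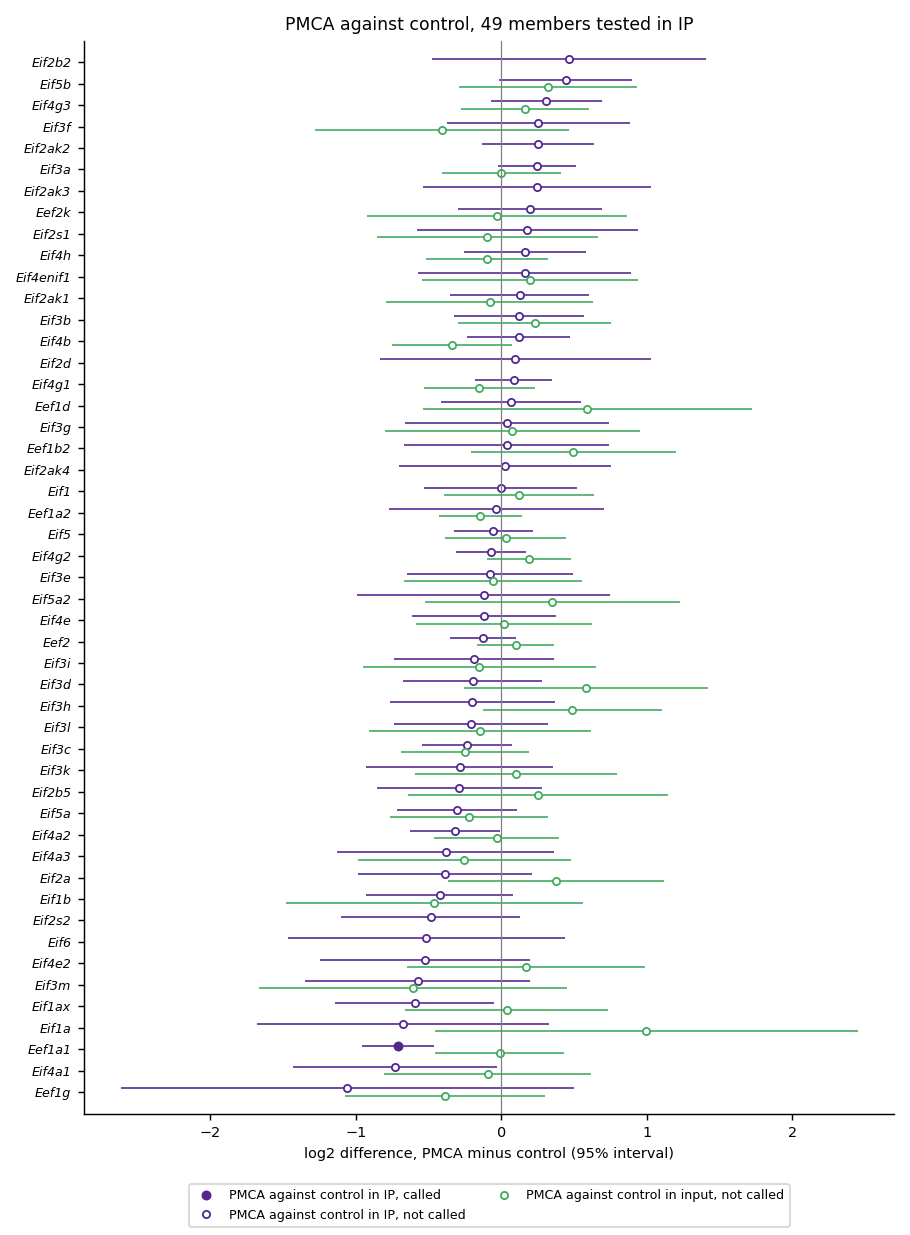
Difference of PMCA from control mice for the 49 members tested in IP (log2 scale, x axis, with 95% intervals), in IP (purple) and in input (green), filled where called by limma. Eef1a1 in IP is the single filled point, at -0.71.

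In whole striatal input, 0 of 42 members tested were called by limma, 0 had an unadjusted p under 0.05, and 0 were called with voom weights on the recovered reads, against a background of 0.0339% of 5895 genes called. The smallest unadjusted p was 0.102, and the median difference was 0.01, as against 0.00 over all genes. The groups did not overlap for 0 members in either direction, beside 1.48% of all genes higher and 1.05% lower. The 95% interval stayed within 2-fold either way for 30 of the 42. The test of whether the treatment effect differed between IP and input called 0 of 47 members, against 0.0371% of 8091 genes, and voom weights also gave 0. At an unadjusted p under 0.05 it held 3 members (6.38%, beside 5.28% of all genes), Eef1a1, Eif2ak2 and Eif1a, each at a limma adjusted p of 0.913.

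Eif2ak2 was too low in input for the test there, and its reads are given instead. Control input held 3, 4, 8 and 2 reads, or 3.81, 4.12, 4.41 and 2.60 log2 CPM. PMCA input held 14, 15, 22 and 8 reads, or 5.68, 5.51, 6.09 and 4.16 log2 CPM. The ranges overlapped through mouse Y490, the lowest of the PMCA group. With no filter on low counts the difference was 1.62 (SE 0.53), with an unadjusted p of 0.00394 and a limma adjusted p of 0.983. The microglial marker sums of the input libraries, given above, ranged higher in PMCA mice with overlap, and their part in these reads was not tested.

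Set against input, RNA on astrocyte ribosomes had more Eif2ak2, Eef1d, Eif4g2, Eef2k, Eif5, Eif4g1 and Eif3a and less Eef1a2 and Eif4a2 in both treatments. In control mice 14 of 47 members were called, 11 higher and 3 lower in IP. That was 29.8% of the members, below the 53.4% of 8091 genes called (27.3% higher, 26.1% lower). PMCA mice had 13 called, 7 higher and 6 lower, or 27.7% against a background of 49.7% (24.9% higher, 24.8% lower). With CPM per total reads, a scaling that moved the median of all genes from 0.06 to -0.17 in control mice and from 0.02 to -0.26 in PMCA mice, the splits were 6 higher and 5 lower and 6 higher and 13 lower. The median member differed by 0.18 in control mice and 0.05 in PMCA mice, beside 0.06 and 0.02 for all genes. IP and input libraries did not overlap for 9 members higher and 2 lower in control mice, beside 25% and 23.7% of all genes, and for 7 and 5 in PMCA mice, beside 23.8% and 23.3%. Scaled to total reads, the control calls of Eef2k (limma adjusted p = 0.0504), Eif4g1 (0.136), Eif3a (0.213), Eif1ax and Eif2b5 and the PMCA call of Eef1d (0.0701) were lost, and the control call of Eif3a was also lost without the variance trend and robust moderation (0.0702). The 7 members called higher in PMCA mice were all among the 11 of control mice, and 2 were called lower in both. The calls of 7 of the 14 members in control mice and 9 of the 13 in PMCA mice held whichever mouse was left out. Per the labels the IP and input libraries of a mouse come from one animal, and a block for the mouse left 14 members called in each treatment.

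The largest difference was in the eEF1A paralogs. Eef1a2, at chromosome 2, 181141758 to 181157015, was at 9.60, 9.10, 9.26 and 9.19 log2 CPM in control input and 4.38, 5.43, 4.84 and 6.34 in control IP. In PMCA mice it was at 9.24, 9.22, 9.03 and 9.09 log2 CPM in input and 5.64, 4.91, 5.26 and 5.04 in IP. Every input library lay above every IP library. IP was lower, at -4.04 on the log2 scale (SE 0.28, limma adjusted p = 6.7e-12) in control mice and -3.93 on the log2 scale (SE 0.28, limma adjusted p = 1.31e-11) in PMCA mice. The 8 general neuron markers, all called lower, summed to 3888 to 4109 CPM in control input and 330 to 551 CPM in control IP, and to 3627 to 4639 and 321 to 447 CPM in PMCA mice, and their part in this difference was not tested. Eef1a1 differed between IP and input by -0.07 in control mice (adjusted p = 0.787), which was not called, and was lower, at -0.77 on the log2 scale (SE 0.19, limma adjusted p = 0.00173), in PMCA mice. The PMCA contrast shares its IP libraries with the treatment comparison above. The log2 ratio of Eef1a1 to Eef1a2 was 1.24 ± 0.53 in control input, 5.22 ± 0.93 in control IP, 1.38 ± 0.50 in PMCA input and 4.54 ± 0.41 in PMCA IP (SD, n = 4), so every IP library lay above every input library.

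**Figure D3:**
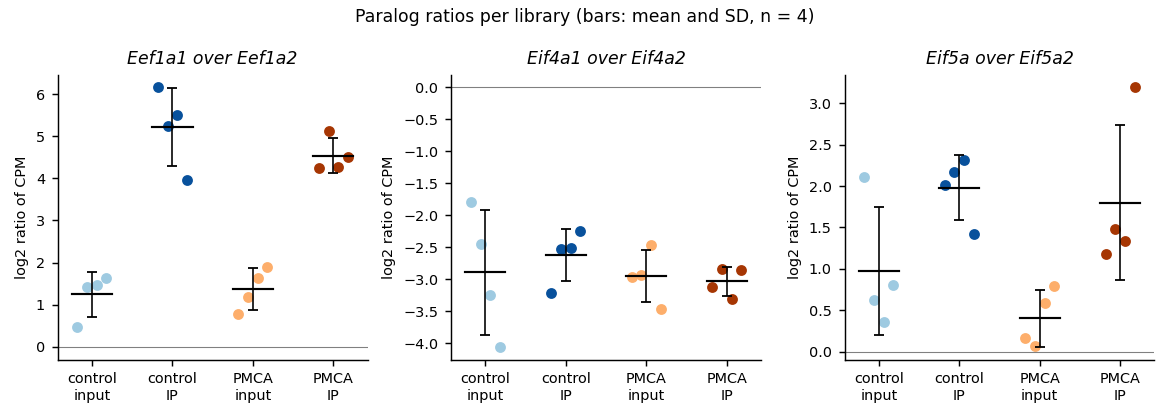
Log2 ratio of CPM between paralogs in each library, by group, with the mean and SD (n = 4), for 3 pairs; gene length is not corrected, so only differences between groups can be read. The Eef1a1 to Eef1a2 ratio is at 3.95 or more in IP and at 1.91 or less in input, while Eif4a1 to Eif4a2 overlaps in all 4 groups.

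Among the other elongation genes, Eef1d and Eef2k were called higher in both treatments. Eef1d, the eEF1B delta subunit, was higher by 1.61 on the log2 scale (SE 0.38, limma adjusted p = 0.000785) in control mice and 1.08 on the log2 scale (SE 0.38, limma adjusted p = 0.0193) in PMCA mice. The PMCA call was lost without Y487, Y489 or Y490. Eef2k was at 4.52, 5.10, 5.30 and 5.27 log2 CPM in control input and 4.88, 4.62, 5.72 and 4.84 in PMCA input, below all IP libraries of the same treatment. Its difference was 0.91 on the log2 scale (SE 0.31, limma adjusted p = 0.0133) in control mice, a call lost without Y481, and 1.14 on the log2 scale (SE 0.31, limma adjusted p = 0.00287) in PMCA mice. Its target Eef2 differed by 0.16 and -0.06, neither called. Eef1b2 was called lower in PMCA mice (-1.04 on the log2 scale, SE 0.36, limma adjusted p = 0.0163), a call lost without Y486 or Y487. Eef1g was not called in either treatment, at -0.44 in control mice and -1.11 in PMCA mice. The PMCA value includes Y490, whose IP library held 1 read and whose IP minus input was -3.64.

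Of the eIF2 kinases, Eif2ak2 alone was called, and it was higher in IP. Control IP held it at 7.12, 7.28, 7.24 and 6.67 log2 CPM, against the control input values above. PMCA IP held it at 7.26, 7.25, 7.72 and 7.09 log2 CPM. Within each treatment all IP libraries lay above all input libraries. The difference was 3.34 on the log2 scale (SE 0.37, limma adjusted p = 2.39e-08) in control mice and 1.97 on the log2 scale (SE 0.37, limma adjusted p = 8.32e-05) in PMCA mice. The test of the difference between these gave -1.37 (SE 0.53, limma adjusted p = 0.913), which was not called. Differences of Eif2ak1 (0.36 and 0.57), Eif2ak3 (0.21 and 0.81) and Eif2ak4 (0.67 and 0.42) were all positive and none was called. The symbol group for eIF2 and its exchange factor eIF2B also holds Eif2a and Eif2d, which encode separate factors. Of its 9 genes 4 were tested over 16 libraries, namely Eif2s1, Eif2s2, Eif2b5 and Eif2a. Eif2s2, the beta subunit of eIF2, was higher in control mice by 1.79 on the log2 scale (SE 0.46, limma adjusted p = 0.00165). Eif2b5, the catalytic eIF2B subunit, was higher there by 0.96 on the log2 scale (SE 0.35, limma adjusted p = 0.0233), a call lost without Y481 or Y485. In PMCA mice they differed by 0.67 and 0.42 and were not called, and whether the treatments differed was tested with no call (adjusted p = 0.913 and 0.921). Eif2s1, the subunit that the kinases phosphorylate, differed by -0.43 and -0.16.

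The factors that select the start codon included Eif5, which encodes the GTPase-activating protein of eIF2. Eif5 was at 8.41, 7.66, 7.37 and 7.93 log2 CPM in control input and 8.94, 8.79, 8.45 and 8.53 in control IP. It was at 8.00, 7.85, 7.69 and 7.95 log2 CPM in PMCA input and 8.68, 8.55, 8.75 and 8.51 in PMCA IP. IP lay above input in every library of each treatment. The differences were 0.83 on the log2 scale (SE 0.18, limma adjusted p = 0.000268) in control mice and 0.75 on the log2 scale (SE 0.18, limma adjusted p = 0.000919) in PMCA mice. Eif1ax was called higher in control mice (0.88 on the log2 scale, SE 0.31, limma adjusted p = 0.0196), a call lost without Y481 or Y485, and differed by 0.25 in PMCA mice. All 12 eIF3 genes were tested, and 9 differences were positive in each treatment (beside 51.9% and 50.7% of all genes), with medians of 0.22 and 0.20. Eif3a, the largest eIF3 subunit, was higher in both, by 0.46 on the log2 scale (SE 0.17, limma adjusted p = 0.0254) and 0.71 on the log2 scale (SE 0.17, limma adjusted p = 0.00123), and the control call was lost without Y482 or Y485. Eif3d, a subunit that can bind the cap of some mRNAs, was called in control mice (1.11 on the log2 scale, SE 0.33, limma adjusted p = 0.00599) and lost without Y481. Eif3e, Eif3f and Eif3h differed by -0.44, -0.33 and 0.19 in control mice and by -0.45, 0.33 and -0.50 in PMCA mice, and none was called.

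Within the cap complex the scaffold genes Eif4g1 and Eif4g2 were higher and the helicase gene Eif4a2 lower in both treatments. Eif4g2 encodes DAP5, a scaffold that does not bind eIF4E. It was at 9.00, 8.84, 8.95 and 8.86 log2 CPM in control input and 10.48, 10.07, 10.05 and 9.86 in control IP. It was at 9.37, 9.06, 8.95 and 9.04 log2 CPM in PMCA input and 9.97, 10.10, 10.21 and 9.91 in PMCA IP. No IP library fell to the input range. The differences were 1.2 on the log2 scale (SE 0.13, limma adjusted p = 1.22e-08) and 0.94 on the log2 scale (SE 0.13, limma adjusted p = 9.17e-07). Eif4g1, the main scaffold, was higher by 0.49 on the log2 scale (SE 0.16, limma adjusted p = 0.00965) in control mice, a call lost without Y483, and by 0.73 on the log2 scale (SE 0.16, limma adjusted p = 0.000332) in PMCA mice. Eif4g3 differed by 0.35 and 0.50 and was not called.

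Eif4a2, the helicase paralog known to be abundant in brain, was at 8.14, 8.63, 8.73 and 9.22 log2 CPM in control input and 8.00, 8.28, 7.81 and 8.09 in control IP. PMCA mice held 8.16, 8.70, 8.68 and 9.05 log2 CPM in input and 7.83, 7.65, 7.85 and 7.58 in IP. The fractions overlapped in control mice and did not in PMCA mice. It was lower in IP, at -0.63 on the log2 scale (SE 0.19, limma adjusted p = 0.00753) in control mice, a call lost without Y483 or Y485, and -0.92 on the log2 scale (SE 0.19, limma adjusted p = 0.000297) in PMCA mice. Eif4a1 differed by -0.36 in control mice and was called lower in PMCA mice (-1.0 on the log2 scale, SE 0.34, limma adjusted p = 0.017), lost without Y487 or Y489. The Eif4a1 to Eif4a2 log2 ratio was -2.89 ± 0.98 and -2.62 ± 0.41 in control input and IP, and -2.95 ± 0.41 and -3.03 ± 0.23 in PMCA mice (SD, n = 4), with overlap throughout. Eif4b, which stimulates the helicase, was called lower in control mice (-0.75 on the log2 scale, SE 0.19, limma adjusted p = 0.00166) and differed by -0.29 in PMCA mice. Eif4e differed by -0.27 and -0.41, and Eif4a3, the helicase of the exon junction complex, by 0.18 and 0.05; neither was called.

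**Figure D4:**
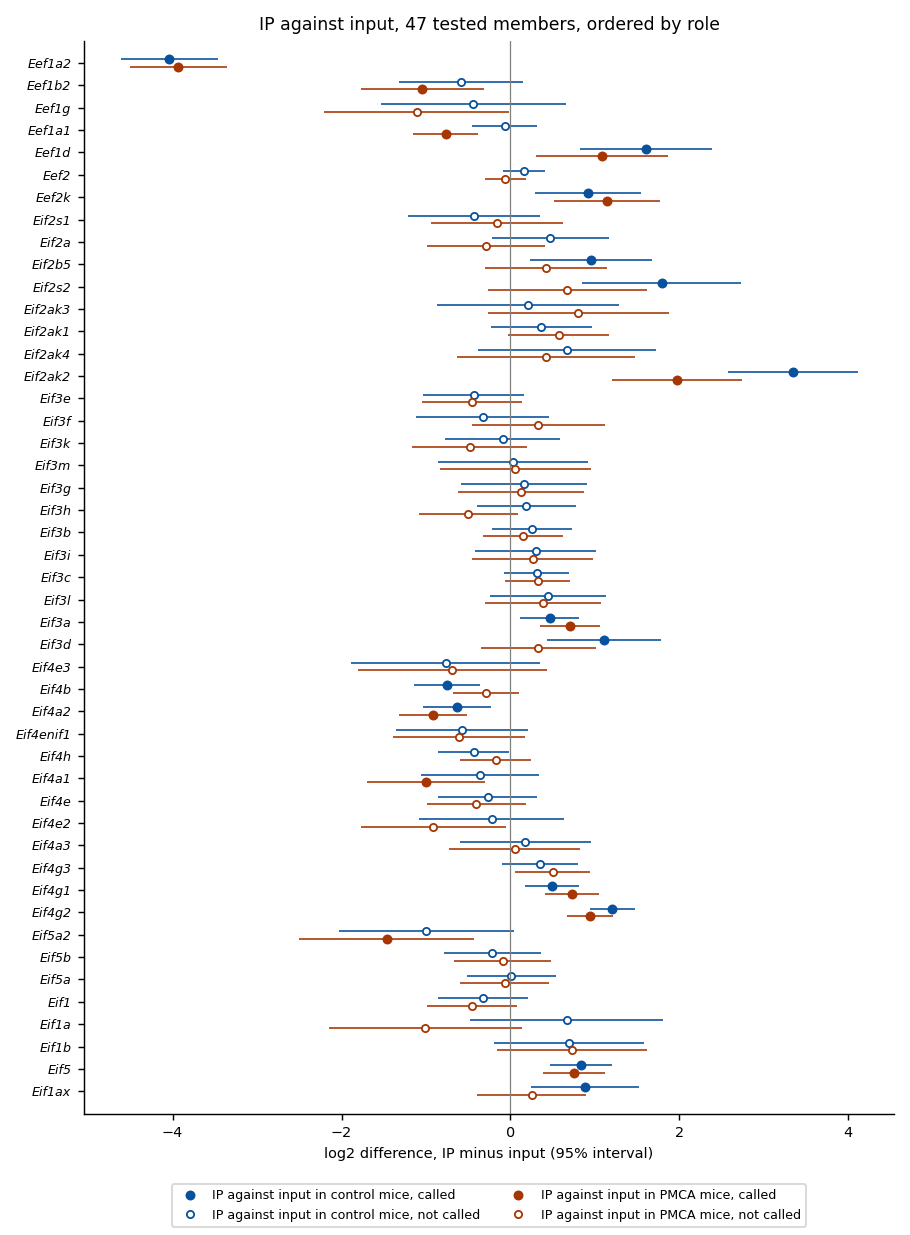
Difference of IP from input for the 47 members tested over all 16 libraries (log2 scale, x axis, with 95% intervals), in control mice (blue) and PMCA mice (brown), grouped by role and filled where called by limma. Eef1a2 stands at -4.04 and -3.93 and Eif2ak2 at 3.34 and 1.97, while most others lie within 1 of 0.

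Eif5a2, a paralog of eIF5A, the hypusine-bearing factor that helps ribosomes through difficult peptide bonds, was called lower in PMCA mice (-1.47 on the log2 scale, SE 0.50, limma adjusted p = 0.0186), lost without Y487 or Y490. It differed by -1.0 in control mice, and Eif5a differed by 0.01 and -0.07. The log2 ratio of Eif5a to Eif5a2 was 0.97 ± 0.78 in control input and 1.98 ± 0.39 in control IP, and 0.40 ± 0.34 and 1.80 ± 0.94 in PMCA mice (SD, n = 4). This ratio overlapped between IP and input in control mice and did not in PMCA mice. The PMCA IP ratio of Y490, 3.19, rested on 3 reads of Eif5a2, beside 1.17, 1.49 and 1.34 in Y486, Y487 and Y489. The eIF4E-binding proteins had too few reads for any test. Eif4ebp1 had 13, 8, 1 and 5 reads in control IP and 0, 0, 0 and 0 in control input. Taking 3 reads over the whole input group as the floor, IP was 5.81-fold higher in CPM. That value takes the IP reads as they are, so it is not a lower bound that covers their counting error. PMCA IP held 4, 4, 5 and 1 reads and PMCA input 0, 1, 3 and 3, a ratio of 1.55 with a 95% counting interval of 0.584 to 4.53. Eif4ebp2, the form known from neurons, had 11, 2, 7 and 6 reads in control IP and 3, 8, 5 and 7 in control input. In PMCA mice Eif4ebp2 had 12, 15, 8 and 6 and 3, 4, 5 and 15 reads. Eif4ebp3 had at most 4 reads in a library. Reads carry no molecular identifiers, so the intervals cover counting error only, and the floors cover that of the input reads only.

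The wider pathway was described from lists of genes outside the members. They covered other initiation, termination and recycling, poly(A) binding, factor modification, mitochondrial translation, eIF2 stress targets, mTORC1 and TOP mRNAs. Between treatments 0 of their genes were called by limma in IP or in input, and 0 and 0 were called with voom weights. At an unadjusted p under 0.05 there were 11 of 63 in IP (17.5%, beside 12.9% of all genes) and 2 of 53 in input (3.77%, beside 3.6%). Among 9 tested stress targets of eIF2 phosphorylation, 6 were higher and 2 lower in IP in control mice, and 4 and 2 in PMCA mice. Of all genes tested 27.3% were higher and 26.1% lower in control mice, and 24.9% and 24.8% in PMCA mice. The same background holds for the IP against input counts of the lists that follow. Slc7a11, the cystine transporter, differed by 4.17 and 3.59. Sesn2, a nutrient sensor, had 60 reads over control IP and 0 over control input. That was 12.9-fold higher in CPM with the same 3-read floor, with counting error of the IP reads left out. In PMCA mice Sesn2 had 40 and 5 reads, a ratio of 6.18 (95% counting interval 2.44 to 20.1). Asns, asparagine synthetase, had 30 reads in IP and 109 in input in control mice, a ratio of 0.178 (0.114 to 0.268), and 3 and 134 in PMCA mice, a ratio of 0.0173 (0.00352 to 0.0517). These counting intervals pool the reads of a group and leave out the spread between mice. The test of whether the treatment effect differed between IP and input called 0 of the 9 stress targets, beside 0.0371% of all genes. At an unadjusted p under 0.05 it held 2 of the 9, beside 5.28% of all genes. The list's best-known regulator, Atf4, differed by 0.59 and 0.36 and was not called. In IP between treatments the 8 tested stress targets had a median difference of -0.24. Of these 8, 1 had an unadjusted p under 0.05, beside 12.9% of all genes. Of 18 mTORC1 pathway genes 0 were higher and 3 lower in control mice, and 1 and 3 in PMCA mice, with the GTPase gene Rragd (-1.01 and -1.11) and the mTOR inhibitor Deptor (-1.12 and -1.13) lower in both. Among 13 other initiation genes the paralogs Cyfip1 (2.83 and 2.18) and Cyfip2 (-3.24 and -3.16), whose products bind eIF4E with the fragile X protein, moved in opposite directions.

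Pabpc1, the poly(A)-binding protein that joins eIF4G, was lower in IP, at -0.77 and -1.0, and of 5 poly(A) binding genes 2 were lower in each treatment, with 0 and 1 higher. Of 10 termination and recycling genes 2 were higher in control mice, Gspt1 (0.75) and Etf1 (0.73), which encode the release factors, and in PMCA mice 1 was lower, Upf2 (-0.76) of nonsense-mediated decay. Of 4 tested factor modification genes 1 was higher and 1 lower in control mice, Dph3 (1.51) and Dph6 (-1.40) of the diphthamide pathway that modifies eEF2, and 0 were called in PMCA mice, where 1 had an unadjusted p under 0.05 and voom weights called 2. Of 4 mitochondrial translation factors 0 were called in either treatment by limma, with 0 and 1 at an unadjusted p under 0.05 and 0 and 1 called with voom weights.

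The TOP mRNAs were set beside the members. Among the 10 members on the TOP list 1 was higher (10%) and 2 lower (20%) in IP in control mice, with a median of -0.38. In PMCA mice 1 was higher (10%) and 3 lower (30%), with a median of -0.48. Of all genes tested 27.3% were higher and 26.1% lower in control mice, and 24.9% and 24.8% in PMCA mice. The 37 tested members outside the TOP list had medians of 0.30 and 0.14. Of 42 cytosolic ribosomal protein genes tested, 20 were lower and 1 higher in control mice and 27 and 1 in PMCA mice, with medians of -0.86 and -1.05. Between treatments in IP, 0 of 31 tested ribosomal protein genes were called by limma, 0 were called with voom weights and 0 had an unadjusted p under 0.05. Of these 31 differences 26 were negative, beside 50.8% of all genes tested, and their median was -0.19. The TOP members had a median of -0.06 in that comparison, with Eef1a1 at -0.71 as the one call.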

How the data were processed

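RNA-seq libraries of 8 mice, 1 input and 1 IP each, were analysed. Per the labels they were stranded and depleted of ribosomal RNA, and the submitters' processing notes name mm10, STAR, HTSeq, edgeR and limma without versions. The sources used here do not give the strand setting or the handling of multiply mapped reads. The authors deposited log2 CPM values, scaled to the effective library size, for 13277 genes. Read numbers were recovered from them, and 100% came out whole within a tolerance of 0.01 reads (largest deviation 9.06e-10), on top of a mean prior of 0.25 reads. The main test used no counts. Recovered reads entered the voom alternative and the counting intervals. The libraries held 198462 to 686343 reads, and 1 read was worth 1.59 to 4.46 CPM.

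The main test was limma 3.58.1 in R 4.3.3 (variance trend, robust, statmod 1.5.0; labels read with jsonlite 2.0.0) on the deposited log2 values. The treatments were compared within the 8 IP and within the 8 input libraries, and IP against input and the interaction in 1 model over 16 libraries. Genes entered a model if at least 4 of its libraries held the CPM that 10 reads give in a library of median size. p-values were adjusted by Benjamini-Hochberg over all genes tested and called under 0.05. All adjusted p-values come from limma. It was also run on simulated counts with a fixed dispersion and no mouse effect, which cannot vouch for single calls in these libraries. Differences are between group means of the deposited log2 values, whose prior understates the change of low genes. Voom weights on recovered reads, other filters, scalings and pseudocounts, a mouse block and each mouse left out were alternatives.

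Genes named with values are those called in a treatment comparison or in the difference between fractions, the 8 called members with the largest differences in each direction of IP against input, and a set of members listed by function. From the other lists up to 3 called genes per direction were named, and Atf4 was added after its values were seen. The members, lists and rules were chosen with earlier results of these data known. Input and IP of a mouse are paired by the labels. Over 4288 genes the deviations from group means of a mouse's input and IP had r = 0.098, 0.029, 0.055 and 0.092 (control) and 0.046, 0.14, 0.15 and -0.036 (PMCA). The best r with the IP of another mouse of the treatment was -0.0059, 0.02, 0.0054 and 0.029 (control) and 0.1, -0.0047, -0.02 and 0.035 (PMCA). For Y486 and Y490 this exceeded the r of the same mouse. Locations and promoter letters are from RefSeq, GRCm38.p6, matched by symbol.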

Additional observations from a re-analysis of the deposited data

Results flagged for a closer look

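In 188 groups of 4 libraries, 13 held a library whose gap to its nearest neighbour was a large share of the group's range, and chance alone gives about 1 in 20. The input of Y481, the shallowest library at 198462 reads, accounted for 5 of them. In it Eif3f was lowest at 4.775 log2 CPM (nearest 5.776), Eif3i at 4.518 (nearest 5.846), Eif3l at 4.518 (nearest 6.083) and Eif5a at 6.625 (nearest 7.285), while Eif4e2 was highest at 6.971 (nearest 5.413). Among IP libraries, Eif3b in Y481 was highest at 7.028 (nearest 6.476) and Eif5a in Y485 lowest at 6.628 (nearest 7.252). In PMCA IP, Eef1g in Y490 was lowest at 1.947 (nearest 5.16), Eef2k in Y489 was lowest at 5.985 (nearest 6.206) and Eif3c in Y487 was highest at 7.974 (nearest 7.674). In PMCA input, Eif1 in Y489 was highest at 7.119 (nearest 6.479), Eif3h in Y490 lowest at 5.653 (nearest 6.384) and Eif4e in Y486 lowest at 5.57 (nearest 6.871).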

How the results depend on the processing

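Counts of called members in IP against input stayed within 1.5 times of 14 (control mice) and 13 (PMCA mice) under the alternatives run, except that a filter at 30 reads, which left fewer members tested, gave 9 in control mice. Leaving out 1 mouse gave 10 to 15 in control mice and 11 to 15 in PMCA mice. The replicate block for the mouse gave 14 in each and 0 for the difference between fractions. The single call between treatments in IP held with each mouse left out, with voom weights and under each filter and scaling, and became 0 without the variance trend and robust moderation and 0 in the model over 16 libraries; the cause was not tested. With CPM per total reads the median of the members moved to -0.024 in control mice and -0.21 in PMCA mice, where the median of all genes also moved. Of 2342 single-gene values under the alternatives, 29 fell short of a call made in the main test and 21 gained one. In 0 did the sign change with a call in the main test or the alternative. Uncalled differences did change sign, as for Eef1a2 between treatments in IP (-0.32 to 0.33). The 95% interval of the treatment difference reached beyond 2-fold for 12 of 49 members in IP and 12 of 42 in input, so a change of that size was not excluded for them.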

Other observations

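The test of whether the treatment effect differed between IP and input held 3 of 47 members at an unadjusted p under 0.05 (6.38%, beside 5.28% of all genes), and limma and voom weights called 0. Eif1a, which encodes a form of eIF1A, was the member with the largest such difference, at -1.67 on the log2 scale. It rested on few reads, with 2, 2, 12 and 9 in control input and 16, 16, 8 and 9 in control IP. PMCA input held 3, 19, 10 and 24 reads and PMCA IP 17, 8, 5 and 3. IP minus input of single mice ran from -0.82 to 2.01 in control mice and from -2.35 to 1.27 in PMCA mice. Eif1a was chosen after its values were seen.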
